A study of Zea mays with 4 samples.

Results

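The genes described here are 4 transcripts of the basal endosperm transfer layer (BETL) of the maize kernel: 1d053108 (Zm00001d053108), 1d052759 (Zm00001d052759), 1d053785 (Zm00001d053785) and GPM832 (Zm00001d024659). They were taken by their identifiers, and they are 4 of the 45953 genes counted in each library. The study named the first 3 from transfer cell clusters of these same libraries and probed them by in situ hybridization, and it used gpm832 as an established BETL marker, so their high level in transfer cells is a description here and no test is given for it. BETL9 (Zm00001d041822), a long-used marker of the layer, served as the yardstick for level per cell, for specificity outside transfer cells and for age.

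The endosperm came from wild-type B73 kernels, harvested 6 or 7 days after pollination (DAP). The sample labels name greenhouse plants, whereas the study's reporting summary names a site in Beijing in summer. Many kernels were pooled for a preparation, the tissue was digested to protoplasts (cells without walls), and droplet single-cell libraries were made that count each captured RNA 3′ end once by a molecular identifier (UMI). There was 1 library at 6 DAP and there were 3 at 7 DAP, so nothing could be tested between the ages. All cells are from 1 inbred line, no treatment or mutant enters, and the classes hold only cells that survived digestion.

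Transfer cells line the base of the endosperm, where the kernel meets the mother plant. Their inner walls grow into the cell as a labyrinth, which enlarges the plasma membrane through which sugars and amino acids enter the seed. The layer is also known for many small secreted, cysteine-rich proteins, and the Myb-related activator MRP1 switches on several of its genes.

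The study's annotation names 1d052759 pco073740, a non-specific lipid-transfer protein, a kind of small secreted protein with a pocket for lipids. It names 1d053785 a homolog of defensin-like protein 6, and defensins are small secreted peptides best known for antifungal action. For 1d053108 and GPM832 no function is given, and a RefSeq table lists both gpm832 and pco073740 as synonyms of protein-coding genes. Lipid-transfer proteins and defensins are multigene families. Reads that fit several copies are not counted by the counting program, and how many were lost in this way was not tested.

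The primers that the study designed for these genes are shown because they say which transcript each name stands for and which RNA was probed in tissue sections. Capitals mark ATG at the 5′ end of a forward primer, and TTA or TCA, the complements of stop codons, at the 5′ end of a reverse primer. The shared 5′ tail of the reverse probe primers is left out. GPM832 was amplified by RT-PCR, the other genes for hybridization probes.
BETL9 forward: ATGgcaaaactactcttgggt
BETL9 reverse: gaggaactgtataactcccgcact
1d053108 forward: ATGgcactcatcatcaagagc
1d053108 reverse: cttcatatgacgagagtaaca
1d052759 forward: ATGgccaagtcgaccgcga
1d052759 reverse: TTAgcatttggggatggctatgc
1d053785 forward: ATGcactctggactatatatagg
1d053785 reverse: TCAactcaaatggtgctgtg
GPM832 forward: tgtactgcgcagtaacattttc
GPM832 reverse: ttgtgatcttgtccctctgatc
The 4 probe forward primers all open with ATG. The reverse primers of 1d052759 and 1d053785 open with the complement of a stop codon, whereas those of 1d053108 and BETL9 do not.

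The 6 DAP library held 8248575 UMIs and those of 7 DAP held 26756925 to 36740377. After filters on UMIs, genes and complexity, 17212 of 21654 barcodes remained, with a median of 1814 UMIs per cell at 6 DAP and 3979 to 5659 at 7 DAP. Pairs of libraries shared 4 to 8 barcodes. Cells were clustered without the 4 genes and without BETL9, and clusters were named from fixed markers: BETL-like from 10 other transfer cell genes, and likewise aleurone-like (AL-like), starchy endosperm-like (SE-like), like the endosperm adjacent to the scutellum (EAS-like) and like the embryo-surrounding region (ESR-like). The BETL-like cells numbered 606 at 6 DAP and 818, 826 and 711 at 7 DAP, and all 10 list genes were detected in both clusters that form the class. Levels are CPM, the UMIs of a gene scaled to a total of 1000000 UMIs, of the summed cells of a class. Each UMI stands for 1 RNA whatever its length, so levels are set side by side with no length correction, and differences in capture between genes were not tested.

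In BETL-like cells the 4 genes were among the most abundant transcripts, and all were above BETL9. In each of the 4 libraries 1d053785 had the highest level of any gene and 1d052759 the second highest, while 1d053108 ranked 10, 5, 7 and 5, GPM832 between 18 and 21, and BETL9 between 69 and 99. Together the 4 genes made up 7.07% of all UMIs of BETL-like cells in the 6 DAP library, and 8.93%, 8.43% and 9.30% in those of 7 DAP.

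The defensin-like gene 1d053785 stood at 41532 CPM at 6 DAP and at 47165, 44333 and 50084 CPM in the 3 libraries of 7 DAP. The lipid-transfer gene 1d052759 stood at 20565 CPM at 6 DAP and at 28587, 27062 and 29088 CPM at 7 DAP. For 1d053108 the values were 5492 CPM at 6 DAP and 9714, 8958 and 9858 CPM at 7 DAP. All 3 genes were lower in the 6 DAP library than in any library of 7 DAP.

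GPM832 reached 3086 CPM at 6 DAP and 3835, 3954 and 3970 CPM at 7 DAP. BETL9 reached 1239 CPM at 6 DAP and 1604, 1308 and 1479 CPM at 7 DAP. The order 1d053785, 1d052759, 1d053108, GPM832, BETL9 held in every library, and no neighbours in it overlapped between any 2 libraries.

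**Figure D1:**
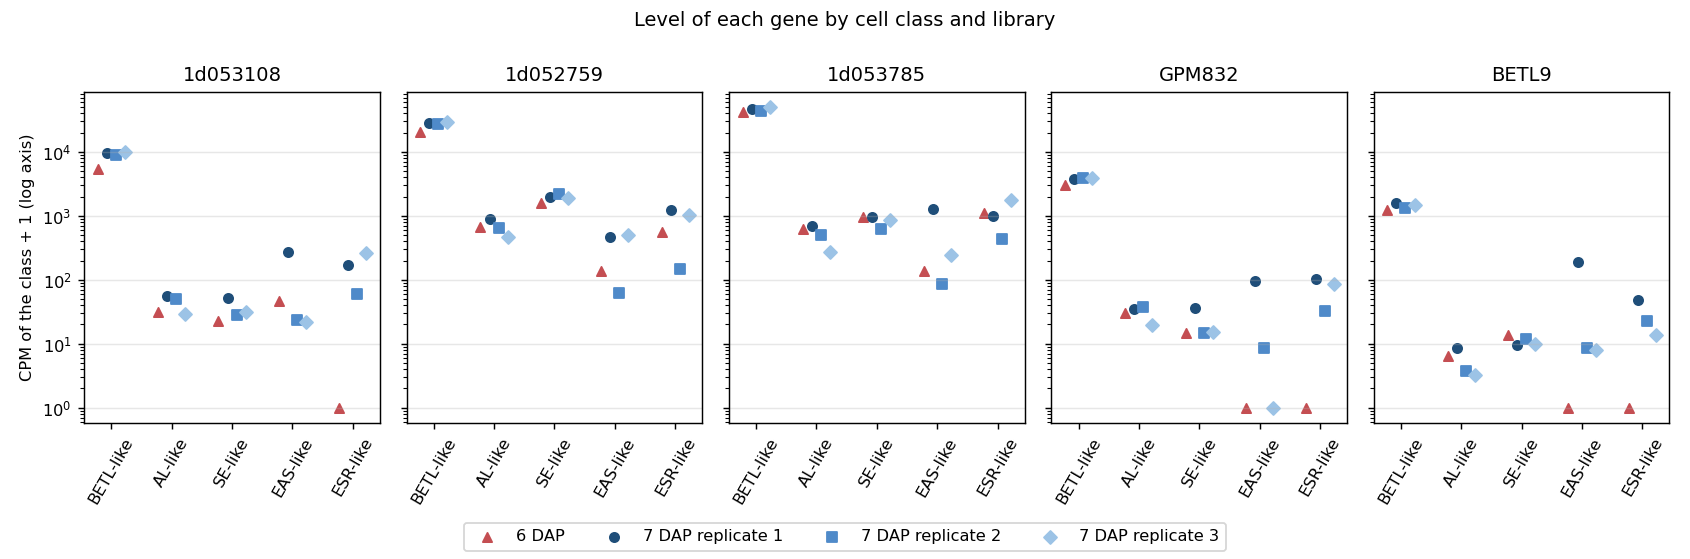
Level of each gene (CPM of the summed cells plus 1, log axis) in BETL-like, AL-like, SE-like, EAS-like and ESR-like cells, 1 symbol per library and no averaging. BETL-like cells stand far above the other classes for all 5 genes, and in SE-like cells 1d052759 stays at 1603 to 2230 CPM where GPM832 is at 13.6 to 34.9 CPM.

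Cell by cell, the genes differed in how evenly they were spread. With every cell thinned to 1000 UMIs, 1d053785 had a median of 35 UMIs in BETL-like cells at 6 DAP and of 32, 35 and 39 at 7 DAP, and 1d052759 had 15, 19, 20 and 24. The medians were 4, 5, 5 and 6 for 1d053108, and 2 at 6 DAP and 3 in each library of 7 DAP for GPM832. BETL9 had a median of 1 at 6 DAP and of 0 in all libraries of 7 DAP.

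Accordingly, at this depth the newer markers picked out far more of these cells than BETL9 did. Of BETL-like cells at 7 DAP, 98.7% ± 0.349 (SD, n = 3) held at least 1 UMI of 1d053785 after thinning, 96.8% ± 0.782 of 1d052759, 88.2% ± 1.92 of 1d053108 and 78.5% of GPM832, against 46.2% for BETL9. All 4 genes were found together in 67.2% of the 6 DAP cells and in 72.1%, 72.5% and 72.3% at 7 DAP. Single cells could be heavily loaded: 1d052759 took up to 23.6% of all UMIs of a cell, and 1d053785 reached 4782 UMIs in 1 cell.

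The genes also differed in how closely they followed each other between single BETL-like cells. Over the 4 libraries the Spearman coefficient of thinned UMIs was 0.63 to 0.69 for 1d052759 with 1d053785 and 0.54 to 0.61 for 1d053108 with GPM832. For 1d053108 with 1d053785 it was 0.41 to 0.65, above the value with GPM832 in replicates 1 and 3 of 7 DAP, and for 1d053108 with 1d052759 it was 0.26 to 0.47. It was 0.11 to 0.30 for 1d052759 with GPM832 and 0.18 to 0.38 for 1d053785 with GPM832. With BETL9 it was 0.43 to 0.52 for 1d053785, 0.32 to 0.47 for 1d053108, 0.29 to 0.35 for 1d052759 and 0.23 to 0.32 for GPM832. These are descriptions over 606 to 826 cells that share a library, and GPM832 and BETL9 have few UMIs per cell.

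Patterns were also compared across clusters. Among 9959 genes compared over 47 sums of cluster and library with at least 50 cells (Pearson r of log2(CPM + 1), sums that share libraries), the patterns most like 1d053108 were BETL3 (r = 0.989), Zm00001d007447 (r = 0.988) and GPM832 (r = 0.987). Those most like GPM832 were 1d053108, Zm00001d007447 (r = 0.983) and BETL3 (r = 0.980). For 1d053785 they were BAP2 (r = 0.981), Zm00001d021920 (r = 0.976) and Zm00001d048622 (r = 0.968), and for 1d052759 they were 1d053785 (r = 0.961), Zm00001d021920 (r = 0.938) and BAP2 (r = 0.922). BETL3 is a defensin-like protein of the layer and BAP2 a basal layer antifungal protein.

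BETL9 was not the nearest gene of any of the 4. It ranked 45 for 1d053108 (r = 0.940), 20 for 1d052759 (r = 0.844), 16 for 1d053785 (r = 0.930) and 69 for GPM832 (r = 0.915). The number of genes with r above 0.95 was 32 for 1d053108, 25 for GPM832, 8 for 1d053785 and 1 for 1d052759.

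The BETL-like class was made of a larger cluster of 2596 cells and a smaller one of 365 cells, and 3 of the 4 genes stood higher in the smaller. There 1d053108 was at 20738, 20232 and 20474 CPM at 7 DAP, against 7424, 6771 and 7031 CPM in the larger cluster. GPM832 was at 6034, 7160 and 6774 CPM against 3378, 3332 and 3223 CPM. For 1d053785 the values were 77327, 70408 and 77164 CPM against 40902, 39274 and 42873 CPM. The groups do not overlap for any of these genes.

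The lipid-transfer gene went another way. At 28233, 25826 and 29774 CPM in the smaller cluster and 28660, 27302 and 28905 CPM in the larger, the values of 1d052759 overlapped. BETL9 was at 4238, 3226 and 3176 CPM in the smaller cluster and 1057, 936 and 1027 CPM in the larger. The clusters were cut from the transcriptome of these same cells, so these differences have no test. The smaller cluster was also deeper, with a median of 9999, 12418 and 13108 UMIs per cell at 7 DAP against 4429, 7279 and 8763, and the part of depth was not tested.

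How each gene follows BETL9 from cell to cell was asked by grouping BETL-like cells by their BETL9 UMIs after thinning. At 7 DAP, 53.8% of the cells had none, and those cells were not without the newer transcripts. Their levels were 5579 ± 111 CPM (SD, n = 3) for 1d053108, 21846 ± 883 CPM for 1d052759, 31660 ± 567 CPM for 1d053785 and 2826 ± 125 CPM for GPM832. After thinning, 97.5% of them held 1d053785, 94.9% held 1d052759, 81.4% held 1d053108 and 71.9% held GPM832.

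The levels climbed with BETL9. In cells with 3 or more BETL9 UMIs, 1d053108 was at 16747 ± 1392 CPM, 1d052759 at 42699 ± 1031 CPM, 1d053785 at 78448 ± 3655 CPM and GPM832 at 5650 ± 302 CPM. GPM832 flattened, with 5295 ± 520 CPM already at 2 BETL9 UMIs. The library of 6 DAP was below the mean of 7 DAP in every bin for all 4 genes, and there 1d053108 went from 7845 CPM at 2 UMIs to 6869 CPM at 3 or more, and GPM832 from 4255 to 3292 CPM. In replicate 2 of 7 DAP GPM832 likewise went from 5885 to 5512 CPM.

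**Figure D2:**
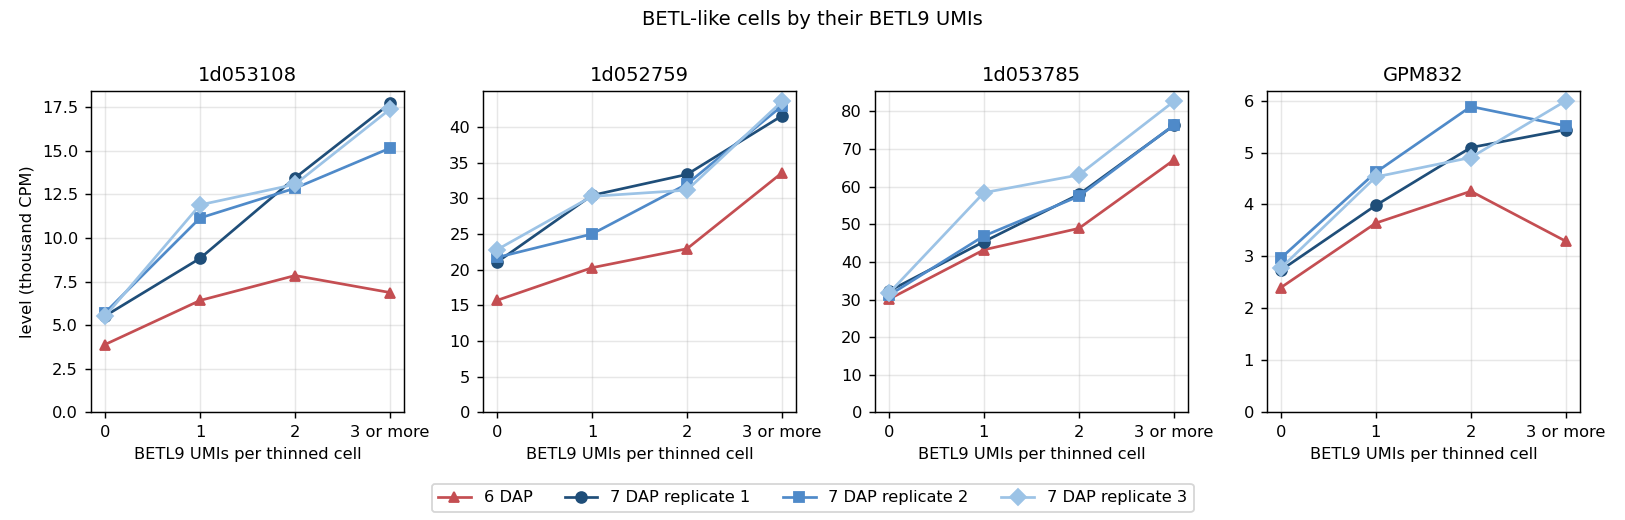
Level of each gene (CPM divided by 1000) in BETL-like cells grouped by 0, 1, 2 or at least 3 BETL9 UMIs after thinning to 1000 UMIs per cell, 1 line per library. At 7 DAP 1d053785 goes from 31660 CPM without BETL9 to 78448 CPM at 3 or more UMIs, and the 6 DAP lines of 1d053108 and GPM832 turn down in the last bin.

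For the test, BETL-like cells of 7 DAP were summed per library with and without a BETL9 UMI after thinning. All 4 genes were higher in the cells with BETL9 by edgeR's quasi-likelihood test with Benjamini-Hochberg adjustment over 14279 genes. The log2 difference was 1.54 for 1d053108 (SE 0.06, adjusted p = 7.5e-34), 1.25 for 1d053785 (SE 0.06, adjusted p = 2.6e-28), 1.10 for GPM832 (SE 0.06, adjusted p = 2.7e-26) and 0.93 for 1d052759 (SE 0.06, adjusted p = 7.2e-22). Over all genes 14.1% were called, 6.73% as higher and 7.35% as lower. The study took 3 of the 4 genes from transfer cell clusters of these libraries, so part of this outcome was set by their choice. BETL-like cells of 7 DAP also ranged widely in the 10-gene list. Its share of a cell's UMIs was 0.223% to 0.264% at the 10th percentile and 3.15% to 3.34% at the 90th.

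The other transfer cell genes moved the same way, and 6 of them by more than any of the 4. All 10 genes of the list were higher, with a median log2 difference of 1.69 where the median over all genes was -0.0015. MEG13 and MEG1, maternally expressed genes for small cysteine-rich peptides, led with 3.03 and 2.80. The gene called MEG1 here is Zm00001d019030, which the deposited gene names give as maternally expressed gene6. The response regulators TCRR1 and TCRR2 had 2.05 and 1.12, MRP1 had 1.34, and the Myb-related factor MYBR29 was lowest with 0.89. The cells with BETL9 were deeper, with a median of 5589, 8250 and 10838 UMIs against 4696, 7543 and 8532, and the part of this depth in the difference was not tested. Within the larger BETL-like cluster alone the log2 differences were 1.15, 0.96, 1.09 and 0.88 for 1d053108, 1d052759, 1d053785 and GPM832. With transfer cells taken instead as cells having at least 1% of their UMIs in the list, the log2 differences were 0.69, 0.48, 0.58 and 0.38, and the largest of the 4 adjusted p-values by edgeR was 0.015.

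Relative to BETL9 the genes kept different proportions. In BETL-like cells of 7 DAP there were 6.52 ± 0.41 (SD, n = 3) UMIs of 1d053108 per BETL9 UMI, 19.4 ± 1.45 of 1d052759, 32.4 ± 2.58 of 1d053785 and 2.70 ± 0.32 of GPM832. At 6 DAP the ratios were 4.43, 16.6, 33.5 and 2.49. Those of 1d053108 and 1d052759 lie below all libraries of 7 DAP, whereas those of 1d053785 and GPM832 lie within their range.

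Outside transfer cells all 4 genes were found at lower levels, and 1d052759 kept the largest share there. Of all UMIs in kept cells, BETL-like cells held 97.8% to 98.7% of 1d053108, 96.6% to 98.2% of GPM832 and 97.1% to 98.7% of BETL9. They held 92.0% to 96.7% of 1d053785 and only 80.3% to 91.1% of 1d052759. The share of 1d052759 was lowest in the 6 DAP library.

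In AL-like cells, the outer layer of the endosperm, 1d052759 led with 665 CPM at 6 DAP and 903, 643 and 470 CPM at 7 DAP. Next came 1d053785 with 628 CPM at 6 DAP and 696, 509 and 272 CPM at 7 DAP. The 2 genes overlapped there. For 1d053108 the level was 30.5 CPM at 6 DAP and 53.8, 49.2 and 27.8 CPM at 7 DAP, and for GPM832 it was 29.4 CPM at 6 DAP and 33.3, 36.0 and 19.0 CPM at 7 DAP. These 2 genes overlapped too, and BETL9 was below both at 5.52, 7.57, 2.74 and 2.24 CPM.

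The level in BETL-like cells was therefore 239 times that in AL-like cells for 1d053108 (mean of 3 libraries, SD 100), 145 times for GPM832 (SD 56.0), 113 times for 1d053785 (SD 62.2) and 45.2 times for 1d052759 (SD 15.4). It was 450 times for BETL9 (SD 226). In replicate 3 of 7 DAP these ratios were 355, 209, 184, 61.9 and 661, the highest of the 3 libraries for all 5 genes.

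Read as cells with a UMI after thinning, the share in AL-like cells of 7 DAP was 14.7% ± 4.06 for 1d053785, 11.7% ± 1.87 for 1d052759, 3.70% ± 1.27 for 1d053108 and 2.52% ± 0.76 for GPM832, against 0.73% ± 0.18 for BETL9. AL-like cells had a median of 4611, 6440 and 6542 UMIs before thinning and BETL-like cells 5074, 7826 and 9371. AL-like cells are not known for these genes, so their shares serve as the background, and no share near them is read as expression.

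Each gene was also set against the 10-gene transfer list. In BETL-like cells of 7 DAP there were 56.2 ± 0.92 UMIs of 1d053108 per 100 UMIs of the list, and in AL-like cells 46.8 ± 7.19. GPM832 had 21.8, 24.9 and 23.0 in BETL-like cells (mean 23.2, SD 1.55) and 24.3, 39.1 and 32.5 in AL-like cells, higher in each library. At 6 DAP it had 16.4 in BETL-like and 17.2 in AL-like cells. In SE-like cells the proportions were lower, at 30.0 ± 4.90 for 1d053108 and 16.3 ± 0.95 for GPM832.

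The other genes, 1d052759 and 1d053785, had higher proportions than in BETL-like cells in both of these classes. In AL-like cells there were 720 ± 76.4 UMIs of 1d052759 per 100 of the list, against 167 ± 4.0 in BETL-like cells, and 508 ± 42.8 UMIs of 1d053785 against 279 ± 10.8. In SE-like cells 1d052759 reached 932, 2814 and 2040 per 100. By number, nearly all barcodes that the filters left out failed for low UMI or gene numbers. Their sums weigh deep barcodes most (given below). They had 136, 136 and 121 of 1d052759 at 7 DAP, below BETL-like cells, but 149 at 6 DAP, above the 109 of BETL-like cells. For 1d053785 they had 232, 238 and 345 at 7 DAP, the last above the 290 of BETL-like cells of replicate 3, and 248 against 221 at 6 DAP. What sets the proportions outside transfer cells was not tested.

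**Figure D3:**
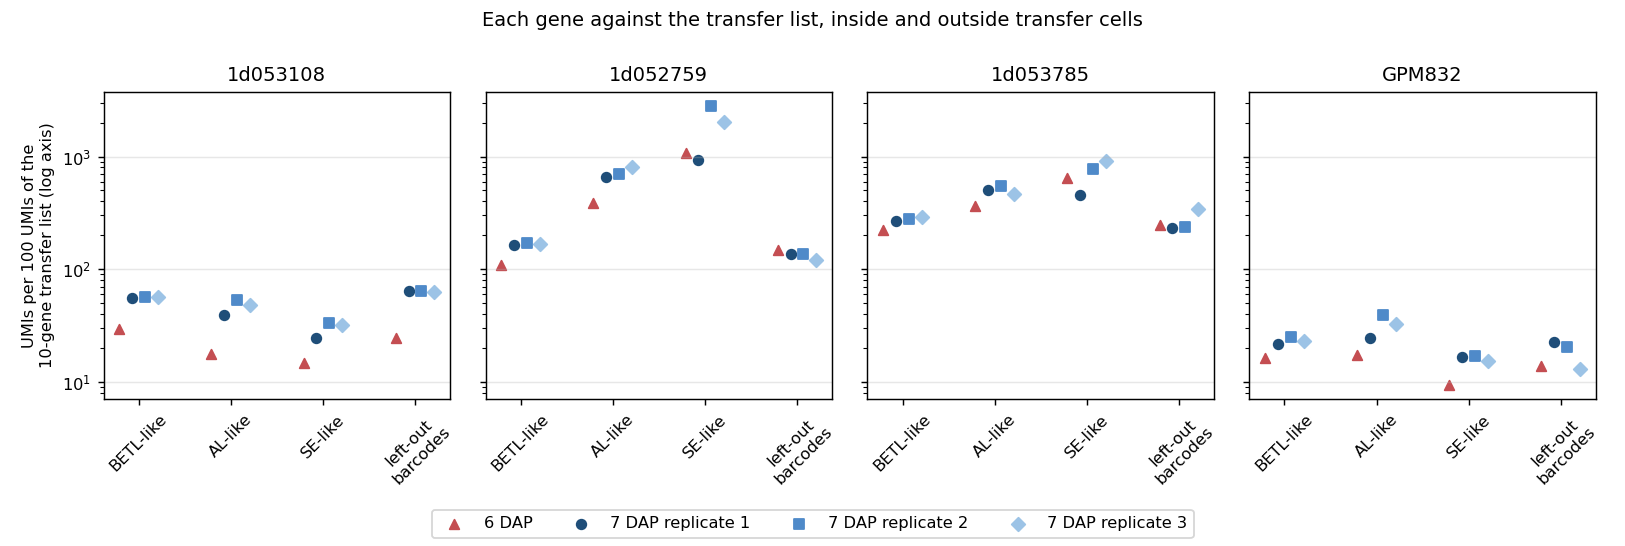
UMIs of each gene per 100 UMIs of the 10-gene transfer list (log axis) in BETL-like, AL-like and SE-like cells and in barcodes left out by the filters, 1 symbol per library. For 1d052759 the AL-like and SE-like symbols lie above those of BETL-like cells in all 4 libraries (109 to 170 in BETL-like cells, 388 to 805 in AL-like cells). For GPM832 the AL-like symbol of each library also lies above its BETL-like symbol, and all symbols lie between 9.35 and 39.1.

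AL-like cells that had no UMI of the list and none of BETL9 still held the newer transcripts. There 1d052759 was at 132 CPM at 6 DAP and 163, 136 and 152 CPM at 7 DAP, and 1d053785 at 94.8, 118, 87.9 and 69.8 CPM. For 1d053108 the level was 9.79, 16.9, 14.1 and 9.92 CPM, and for GPM832 4.45, 8.44, 6.52 and 3.79 CPM. Choosing cells with no UMI of the list also favours shallow cells. In SE-like cells chosen likewise, 1d052759 was at 592, 420, 795 and 413 CPM, above its AL-like level in every library. Of the cells chosen, 22 SE-like and 10 AL-like ones held 1d052759 at or above the BETL-like median of their library after thinning. Their part in these levels was not tested.

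SE-like cells, the young starch-storing tissue, were set against AL-like cells to ask whether the level outside transfer cells is even. Over their sums 1d052759 was at 1603 CPM at 6 DAP and 1963, 2230 and 1935 CPM at 7 DAP in SE-like cells, higher than in AL-like cells of every library. For 1d053785 the values were 960 CPM at 6 DAP and 959, 612 and 859 CPM at 7 DAP. GPM832 was at 13.8 CPM at 6 DAP and 34.9, 13.6 and 14.5 CPM at 7 DAP, and 1d053108 at 21.6 CPM and then 51.4, 26.7 and 30.3 CPM.

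By edgeR's quasi-likelihood test with Benjamini-Hochberg adjustment over 16927 genes, 1d052759 was higher in SE-like than in AL-like cells of 7 DAP (log2 difference 1.22, SE 0.27, adjusted p = 2.2e-05). In contrast, 1d053108 was lower (log2 difference -0.71, SE 0.18, adjusted p = 0.00032), as was GPM832 (-0.93, SE 0.18, adjusted p = 2.5e-06). For 1d053785 the difference was 0.26 (SE 0.29, adjusted p = 0.45). In this comparison 60.2% of all genes were called, 30.3% as higher and 30.0% as lower, so a call by itself sets none of the 4 apart.

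Of the transfer list BAP2, MEG1 and MEG3 were higher and BETL3, MRP1 and MYBR29 lower, with a median of 0.08 where all genes had 0.02, and BETL9 was higher (0.85, SE 0.26, adjusted p = 0.0025). DESeq2 gave none of these calls for the members, with adjusted p-values of 0.12 for 1d052759, 0.40 for 1d053108 and 0.20 for GPM832, and of the list it kept only MRP1 and MYBR29. Without replicate 2 the edgeR adjusted p-values were 0.30 for 1d053108 and 0.13 for GPM832.

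The SE-like class joined clusters that differed sharply in these genes. In the cluster led by FL3, an endosperm regulator, with 1490 cells and a median of 1944 UMIs, 1d052759 was at 2456 CPM at 6 DAP and 4613, 8978 and 5367 CPM at 7 DAP. In the other, with 2031 cells and the storage protein gene ZP27 among its leading genes, it was at 348 CPM and then 389, 161 and 334 CPM. For 1d053785 the values were 1446, 1921, 2192 and 2050 CPM in the FL3-led cluster and 244, 388, 128 and 304 CPM in the other. No value of 1 cluster reached those of the other.

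Set against AL-like cells, the FL3-led cluster alone gave a log2 difference of 2.96 for 1d052759 and 1.76 for 1d053785 (edgeR adjusted p = 4.6e-05). The other cluster alone gave -1.75 for 1d052759 (edgeR adjusted p = 1.1e-08) and -1.42 for 1d053785 (adjusted p = 2.3e-05). GPM832 was lower in both by edgeR. The AL-like class was itself mixed. Its largest cluster, of 2216 cells, had mean 7 DAP levels of 254 CPM for 1d052759, 218 CPM for 1d053785 and 15.7 CPM for GPM832. The ZP27 cluster had 295, 273 and 21.4 CPM. An AL-like cluster of 1469 cells had 1519, 1042 and 64.2 CPM. A lower value against the whole class therefore does not hold against each of its clusters.

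Most of the SE-like signal of 1d052759 came from few cells, and few cells also held much of its AL-like signal (given below). After thinning, 91 of 3521 SE-like cells held at least as many UMIs as the median BETL-like cell of their library, and 86 of them lay in the FL3-led cluster. Of the 91 cells, 17 came from the 6 DAP library and 27, 25 and 22 from those of 7 DAP. These cells held 69.2% of all SE-like UMIs of the gene at 6 DAP and 79.7%, 85.8% and 76.6% at 7 DAP. Without them the SE-like level was 508 CPM at 6 DAP and 416, 329 and 464 CPM at 7 DAP. AL-like cells without their own cells this high had 360 CPM at 6 DAP and 357, 420 and 317 CPM at 7 DAP. In replicate 2 the SE-like value was then the lower. The 91 cells were chosen by this gene's value, so what follows describes them with no test.

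In the sum of the 91 cells 1d052759 was at 49356 CPM, which is 178% of its level in BETL-like cells. The defensin-like gene 1d053785 was at 16625 CPM, 35.5% of its BETL-like level. Of the list, BAP2 came next with 22.8% and MEG3 with 13.6%, and BETL9 was at 8.86%.

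The remaining genes, 1d053108 and GPM832, were below 1% of their BETL-like levels. There were 31 UMIs of 1d053108 in the 91 cells (0.762% of the BETL-like level) and 11 of GPM832 (0.644%). BETL3 was at 0.854%, and no UMI of TCRR1, MRP1 or MYBR29 was found, while 24 of the cells had no UMI of the list at all.

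Markers of both classes were read in these cells. The summed SE list was at 2977, 2370, 4317 and 3615 CPM in them (6 DAP, then 7 DAP), against 2916, 3686, 3504 and 3533 CPM in the other SE-like cells. The transfer list was at 1970, 2053, 521 and 1834 CPM, against 15894 to 18786 CPM in BETL-like cells. Their median depth was 2102, 3548, 5383 and 2390 UMIs, against 1627, 2983, 4028 and 3702 for all SE-like cells. The summed aleurone list was at 403, 5282, 12714 and 5203 CPM in them and at 2675, 12056, 8254 and 9864 CPM in the other SE-like cells. Whether cells of both types in 1 droplet take part was not tested.

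**Figure D4:**
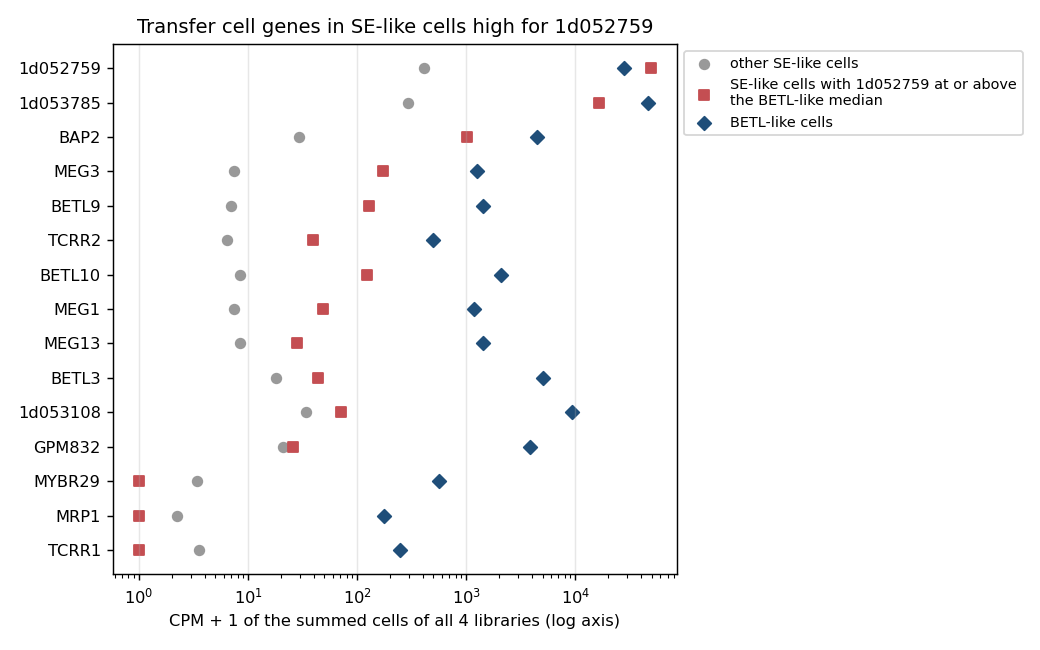
Levels (CPM plus 1 of the cells of all 4 libraries summed, log axis) of the 4 genes, BETL9 and the 10-gene list in the 91 SE-like cells high for 1d052759, in the other SE-like cells and in BETL-like cells. The cells were chosen by 1d052759: its neighbour in level is 1d053785 with 16625 CPM, whereas GPM832 lies at 24.95 CPM, against 19.7 CPM in the other SE-like cells, and TCRR1, MRP1 and MYBR29 are at 0.

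Cells this high for the other genes were fewer. By the same rule there were 16 SE-like and 12 AL-like cells for 1d053785, 3 and 17 for GPM832 and 0 and 6 for 1d053108. For 1d052759 there were also 65 of 6859 AL-like cells. They held 46.4% of its AL-like UMIs at 6 DAP and 61.1%, 35.2% and 32.9% at 7 DAP. By their markers these 65 were not typical of the class. The aleurone list was at 1586, 29075, 24189 and 13016 CPM in them (6 DAP, then 7 DAP), against 22461, 82918, 79838 and 74771 CPM in the other AL-like cells. The SE list was at 1291, 1571, 1040 and 2369 CPM against 897, 880, 803 and 779 CPM. Concentration in few cells was not particular to 1d052759 or to cells grouped as SE-like. The top 1% of SE-like cells held 54.1% to 65.7% of the UMIs of 1d052759 and 54.1% to 62.3% of those of 1d053785. Among AL-like cells the top 1% held 54.9% to 57.7% of those of 1d052759. Clusters that got no name held 3547 cells, 16.5% of kept cells at 6 DAP and 20.5% to 22.3% at 7 DAP, and among them 40 cells were this high for 1d052759, 9 for 1d053785, 8 for GPM832 and 4 for 1d053108. Finding 0 of 3521 SE-like cells for 1d053108 allows a share of up to 0.0852% by counting error alone. That bound pools the cells of all libraries and leaves out the spread between them.

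In the sum of the unnamed cells 1d052759 was at 1829 CPM at 6 DAP and 1053, 409 and 1091 CPM at 7 DAP, and 1d053785 at 1204 CPM and then 612, 502 and 827 CPM. For 1d053108 the level was 34.2, 49.97, 32.8 and 61.3 CPM and for GPM832 26.6, 30.6, 23.3 and 28.3 CPM. In 1 of these clusters, with 1133 cells, 1d052759 was at 684 to 2300 CPM at 7 DAP. In another, with 106 cells, it was at 57.5, 80.4 and 4982 CPM, high only in replicate 3, where the other 3 genes were high as well.

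The EAS-like and ESR-like classes were small, and their values rest on few UMIs. EAS-like cells, next to the embryo's scutellum, numbered 21 at 6 DAP and 32, 31 and 47 at 7 DAP. In them 1d052759 was at 136 CPM and then 471, 60.9 and 506 CPM, 1d053785 at 136 CPM and then 1282, 83.8 and 246 CPM, and GPM832 had 9 UMIs in all 7 DAP cells together. Replicate 1 was highest of the 7 DAP libraries for 1d053108, 1d053785, GPM832 and BETL9.

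Against AL-like cells of 7 DAP, 1d052759 was lower (log2 difference -1.66, SE 0.36, edgeR adjusted p = 6.2e-05), in a comparison where 21.7% of genes were called, 6.78% as higher and 14.9% as lower. The call was lost with DESeq2 (adjusted p = 0.074), which called 1923 genes higher and 1642 lower where edgeR called 1147 and 2525, and without replicate 2 (adjusted p = 0.071 by edgeR). The other 3 genes did not pass, with 0.28 for 1d053108 (SE 0.49, adjusted p = 0.75 by edgeR), -0.81 for 1d053785 (SE 0.38, adjusted p = 0.11) and -0.85 for GPM832 (SE 0.67, adjusted p = 0.41). Of the list only MEG13 was called (2.28, SE 0.71, edgeR adjusted p = 0.0093, and 0.37 without replicate 1), and the list median was 0.69 where all genes had -0.29. BETL9 was called higher (3.06, edgeR adjusted p = 2.1e-05), yet 16 of its 18 UMIs came from replicate 1, and without that library the difference was 0.87 (adjusted p = 0.71).

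ESR-like cells, which surround the young embryo, numbered 4 at 6 DAP and 102, 47 and 40 at 7 DAP. At 7 DAP 1d053785 was at 985, 435 and 1750 CPM in them, 1d052759 at 1250, 147 and 1021 CPM, 1d053108 at 167, 58.7 and 263 CPM and GPM832 at 103, 31.8 and 85.6 CPM. Replicate 2 was lowest for all 4 genes.

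By edgeR, 1d053108 was higher than in AL-like cells (log2 difference 2.06, SE 0.26, adjusted p = 7.7e-13), as were GPM832 (1.53, SE 0.30, adjusted p = 7.4e-06) and 1d053785 (1.28, SE 0.31, adjusted p = 0.00047). For 1d052759 the difference was 0.36 (SE 0.28, adjusted p = 0.38). Here 26.8% of genes were called, 10.8% as higher and 16.0% as lower, where DESeq2 called 2444 higher and 1944 lower and kept only 1d053108 of the members. Of the list BETL10, BETL3, BAP2, MEG1, MEG3 and MEG13 were higher and none lower, with a median of 2.21, and BETL9 was higher too (3.07, edgeR adjusted p = 5.3e-09).

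These values leaned on 1 of the clusters that form the class, with 96 cells, 71 of them from replicate 1, and a median of only 1978 UMIs. Without it 1d053108 was still higher by edgeR (1.73, adjusted p = 9.2e-08), but 1d053785 (0.35, adjusted p = 0.20), GPM832 (0.55, adjusted p = 0.34) and BETL9 (0.30, adjusted p = 0.87) were not, and the list had 2 genes higher and 1 lower. That call for 1d053108 rested on uneven libraries. In the remaining cluster, with 93 cells of 7 DAP, its level ran from 12.4 to 314 CPM (mean 116, SD 171). AL-like cells had 27.8 to 53.8 CPM, so the lowest library lay below all of them. Without replicate 3 the difference of 1d053785 was 0.36 (edgeR adjusted p = 0.62).

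Between the ages, all 4 genes were lower at 6 DAP. In BETL-like cells the log2 ratio of the 6 DAP library to the mean of 7 DAP was -0.79 for 1d053108, -0.46 for 1d052759, -0.34 for GPM832 and -0.18 for 1d053785, and BETL9 had -0.24. The 7 DAP means were 9510 ± 483, 28246 ± 1055, 3919 ± 73.8, 47194 ± 2875 and 1464 ± 148 CPM (SD, n = 3) in that order. For each of the 5 genes the 6 DAP value lay below all 3 libraries of 7 DAP, which was so for 24.1% of the 8417 genes compared, while 59.7% lay above.

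The transfer list went mostly the other way. Only BETL3 was below all libraries of 7 DAP (log2 ratio -0.64), 6 genes were above and 3 within, with a median of 0.40. The genes above were MEG3 (0.97), TCRR1 (0.79), MEG13 (0.75), TCRR2 (0.71), MEG1 (0.62) and BAP2 (0.18). The summed list was at 18786 CPM at 6 DAP against 16917 ± 899 CPM at 7 DAP, so that 1d053108 had 29.2 UMIs per 100 of the list at 6 DAP and 55.2, 56.4 and 57.1 at 7 DAP. RNA of aleurone markers in BETL-like cells also differed: all 4 genes of that list were detected in every library, and their sum was 1594 CPM at 6 DAP and 18469, 17308 and 15147 CPM at 7 DAP, nearly all of it AL9. Its part in the lower values of 6 DAP was not tested.

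The median log2 ratio over all genes was 0.24 in BETL-like cells, and relative to that shift the 4 genes are lower still. None of the 4 passed a rule of size, by which the 6 DAP value has to lie outside the 7 DAP range by a factor of 2 or more, a rule that 2.06% of genes met upwards and 1.2% downwards. With TMM factors in place of totals the median shift was -0.05 and 1d053108 passed downwards (log2 ratio -1.09). All 4 genes were lower at 6 DAP by either scaling, but with TMM factors 44.8% of genes lay below the libraries of 7 DAP, and BAP2 turned to -0.12.

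In whole libraries 1d053108 was at 1077 CPM at 6 DAP and 2042, 2015 and 2292 CPM at 7 DAP, and GPM832 at 611 CPM and then 816, 898 and 927 CPM. For 1d052759 the values were 4914 CPM and then 6790, 6635 and 7327 CPM, and for 1d053785 8657 CPM and then 10281, 10218 and 11888 CPM. The 4 genes were again below all libraries of 7 DAP, as were 30.2% of the 9818 genes compared, while 56.5% lay above, and 0.835% met the size rule upwards and 1.34% downwards. In such totals, the number of transfer cells, their depth and the level within them cannot be told apart. The BETL-like share of kept cells was larger at 6 DAP, 19.3% against 16.2% to 17.0% at 7 DAP. The median UMIs of BETL-like cells were 1915.5 at 6 DAP, where all kept cells had 1814. At 7 DAP they were 5073.5, 7826 and 9371, where all kept cells had 3979, 5599 and 5659. With 1 library at 6 DAP, and that the shallowest, age cannot be told apart from the library and its depth.

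**Figure D5:**
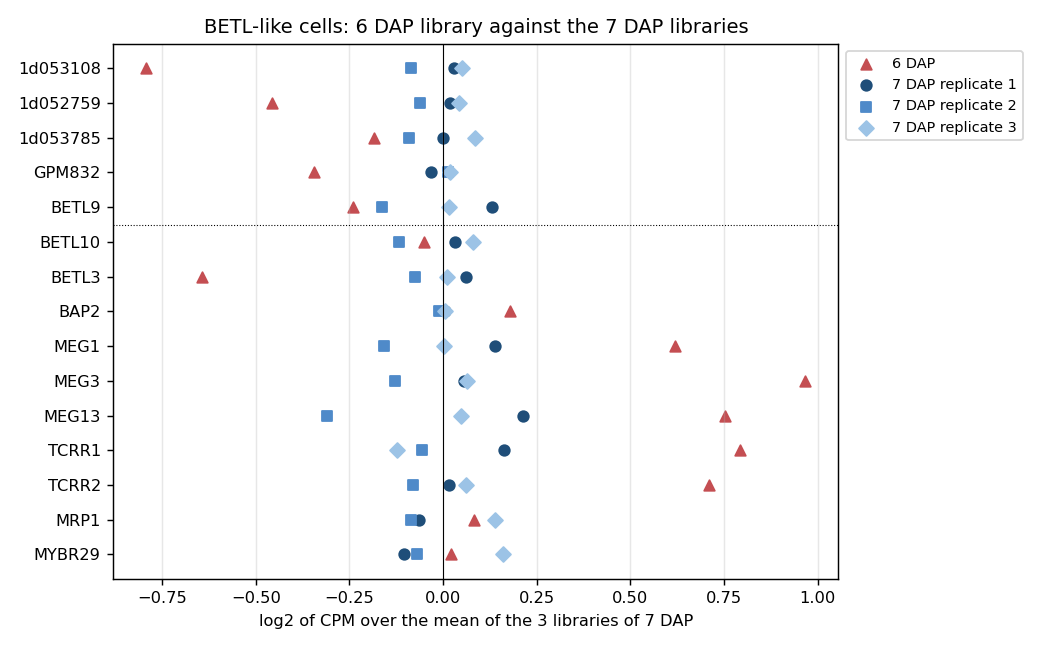
Log2 of the level in BETL-like cells over the mean of the 7 DAP libraries, 1 symbol per library, for the 4 genes and BETL9 (above the dotted line) and the 10 list genes (below it). The 6 DAP symbols of the 4 genes lie left of all 7 DAP symbols, at -0.79 to -0.18, whereas those of MEG3, TCRR1, MEG13, TCRR2, MEG1 and BAP2 lie to the right (BAP2 not with TMM factors).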

How the data were processed

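Raw UMI counts per gene and barcode were deposited by the authors as Cell Ranger matrices for 4 libraries (3′ kit version 3, B73 v4 gene identifiers). Barcodes with at least 1000 UMIs, 500 to 7500 genes and log(genes)/log(UMIs) of at least 0.8 were kept. Cells were scaled within library, in place of the study's batch correction program, reduced to 50 components and clustered (20 neighbours, Leiden resolution 0.75, with mixed clusters divided again at 0.5) in Python 3.11.15 with scikit-learn 1.9.0 and leidenalg 0.10.2. The 4 genes and BETL9 were left out of the clustering. The names of cell classes were rebuilt here and need not match the study's. No doublet caller was run. An alternative left out the 5% of cells with the most UMIs.

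Counts were summed per class and library, and 7 DAP sums were tested with edgeR 4.0.16 (R 4.3.3; TMM, filterByExpr, quasi-likelihood, library as a block, Benjamini-Hochberg over all genes tested, threshold 0.05). DESeq2 1.42.0 was an alternative. The code was tested on simulated counts. Sums of EAS-like cells, and of ESR-like cells in 3 libraries, fell short of the planned 50 cells and are given with their cell numbers. The study calls the 3 libraries of 7 DAP biological replicates. With library as a block, the p-values rest on how differences between sums of the same library vary from library to library. The spread is estimated with information shared among genes, so very small p-values do not come from 3 libraries alone. Intervals and floors cover counting error only. The size rule between ages needs a mean of at least 10 CPM. Named genes are the 4 genes, BETL9, the 10-gene list and the 3 genes most like each of the 4. Members, lists and tests were chosen with earlier results of these data known. Alternatives by single clusters were added after seeing the data.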

Additional observations from a re-analysis of the deposited data

Results flagged for a closer look

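Barcodes left out by the filters also held these transcripts, a signal outside the cells that the comparisons used. By number nearly all were left out for low UMI or gene numbers, but the sums weigh deep barcodes most. At 7 DAP 4835, 4893 and 4401 barcodes passed the limits on UMIs and genes, and 4815, 4871 and 4385 of them passed complexity as well. At 7 DAP they had 2003 ± 143 CPM (SD, n = 3) of 1d053108, where the kept cells had 2116 CPM. The level of 1d052759 was 4136 ± 506 CPM against 6917 CPM in kept cells, that of 1d053785 was 8478 ± 1421 CPM against 10796 CPM, and that of GPM832 was 592 ± 189 CPM against 880 CPM. BETL9 was at 571 ± 40.7 CPM against 325 CPM, the only one of the 5 genes with a mean above that of the kept cells. At 6 DAP the left-out barcodes had 618, 3740, 6250, 351 and 210 CPM in the same order. The BETL9 UMIs of left-out barcodes numbered 730, 743 and 731 at 7 DAP. With no complexity filter and cells clustered again, transfer cells held 8822, 10761 and 11654 BETL9 UMIs. All kept cells held 8634, 10403 and 11158. Part of the left-out BETL9 signal therefore came from the few barcodes that failed only complexity.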

How the results depend on the processing

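The split of BETL-like cells by BETL9 called 2010 genes. It called 468 with DESeq2, 1054 with no replicate block, 1314 without the 5% of cells with the most UMIs, 848 in the larger cluster alone, 226 with transfer cells by 1% of UMIs in the list, and 1203 to 1744 without 1 replicate. The 4 genes were called as higher under all of these alternatives. EAS-like against AL-like called 3672 genes, and 2411 to 3132 without 1 replicate. SE-like against AL-like called 10196, and 4730 with the FL3-led cluster alone. The size rule gave 214 genes in whole libraries, 821 with a mean CPM of at least 1 and 224 to 377 without 1 replicate. In BETL-like cells it gave 274, then 1686 with a mean CPM of at least 1, 438 by 1% of UMIs in the list and 315 to 571 without 1 replicate. Both were highest without replicate 1 of 7 DAP. With TMM factors it gave 40 genes higher and 191 lower in place of 82 and 132 in whole libraries, and 45 and 248 in place of 173 and 101 in BETL-like cells. By 1% of UMIs in the list the 7 DAP levels in transfer cells were 13636 CPM for 1d053108, 33540 CPM for 1d052759, 62614 CPM for 1d053785, 5244 CPM for GPM832 and 2282 CPM for BETL9.

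Signs turned for 1d053108 in EAS-like cells (-1.27 at resolution 1.0, and -1.48 to 0.90 without 1 replicate), for 1d053785 in SE-like cells (-0.36 at resolution 0.5, -1.42 in the ZP27 cluster alone, and -0.060 to 0.56 without 1 replicate), for 1d052759 in SE-like cells (-1.75 in the ZP27 cluster alone), for BETL9 there (-0.23), and for 1d052759 in ESR-like cells (-0.43 without the shallow cluster, and -0.17 to 0.94 without 1 replicate). The cause was not tested. The library block is part of the main design, and leaving it out changed no member's call between classes or in the split. No paired analysis was possible because the ages share only replicate number 1. At 6 DAP the depth allows little to be read from EAS-like and ESR-like cells.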
